A study of Mus musculus with 4 samples.

Results

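Collagen transcripts were measured at E9.5 in mouse embryos that lacked Jmjd3 and in wild-type embryos, using only the posterior part of the body. The genes were all mouse genes whose symbol has the form Col, a number, a and a number. Of 44 such genes in the RefSeq gene table, 42 had a probe on the array, out of 18224 named genes in all, and Col6a3 and Col12a1 had none. The 42 genes had 70 probes, 24 of them had more than 1 probe, and the probe with the highest mean signal stood for each gene.

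Both genotypes came from intercrosses of Jmjd3+/- mice, and embryos were chosen by time after mating and by somite number. The Jmjd3-/- group had 2 RNA samples, called replicates 1 and 9 after their labels, and the wild-type group had 2, called replicates 3 and 4. The labels call the RNA samples independent and do not say how many embryos each holds, so the p-values reflect only how far these samples differ, which may be technical in part. Jmjd3 (current symbol Kdm6b) is a histone demethylase that takes off a repressive mark, and no source used here says how the allele was made. Each RNA was hybridised to 1 array with 1 dye. Where a pair of values is given for a genotype, it is in the order replicate 1, 9 for Jmjd3-/- and 3, 4 for wild-type. Values are log2 processed signals minus the 75th percentile of their array, so 0 is that percentile, and a difference is Jmjd3-/- minus wild-type. Signals of different probes are not comparable, and comparisons are within a gene. The summed levels of marker lists are the exception: they add signals over probes, so the brightest probes weigh most.

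Collagens are proteins of 3 chains wound into a triple helix. Fibrillar collagens form the fibres of mesenchyme, skin and bone, type IV collagens form the sheet of every basement membrane, and types II, IX, X and XI build cartilage. At this stage the trunk holds loose mesenchyme and somites, and the cells of the sclerotome that will make cartilage have only begun to form, while basement membranes already line the neural tube, gut, vessels and surface ectoderm.

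On every array 59.8% to 63.0% of the 41174 probes were well above background, by the mark that the scanner software sets. Kdm6b itself read 0.35 and 0.11 in Jmjd3-/- and 2.15 and 2.23 in wild-type embryos, a difference of −1.96 (SE 0.12, n = 2 per genotype). No source used here says whether its probe lies in the deleted part. Markers of the posterior embryo were present, with 8 of 8 well above background on all 4 arrays, while the forebrain markers Six3 and Otx2 were well above background on 0 arrays. The arrays share 1 slide, with the Jmjd3-/- samples at its ends, so position on the slide and genotype cannot be told apart. Jmjd3-/- replicate 1 stood apart. Over the 36 tested collagens, 9 differed more than 2-fold between Jmjd3-/- replicate 1 and wild-type replicate 3 and 6 between it and wild-type replicate 4, against 0 and 2 for Jmjd3-/- replicate 9. The wild-type arrays themselves differed more than 2-fold in 3 collagens, with a median absolute difference of 0.23 over the collagens and 0.08 over all genes tested.

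The comparison of genotypes asks which collagen transcripts differ in the posterior embryo without Jmjd3. Type IV collagen genes of the basement membrane read higher in both Jmjd3-/- samples for 3 of 5 tested genes, and so did 8 of 13 partner genes, among them laminins, a nidogen and proteoglycans, against 23% of all genes. Of 11 tested fibrillar collagens 2 were higher, and of 6 tested cartilage collagens 1 was, against 46.9% of all genes. Their medians were small, −0.07 and −0.11, and the fibrillar one changed sign without wild-type replicate 3. Among the tested collagens the largest negative differences were those of Col5a3, Col8a1, Col3a1 and Col25a1, and the largest positive one was that of Col17a1. More than 2-fold apart were 3 of 36, Col5a3, Col8a1 and Col17a1, against 3.03% of all genes. Of 36 collagens tested, 0 had an adjusted p under 0.05 (limma with Benjamini-Hochberg adjustment over all 13584 genes tested), against 0.0368% of all genes, and the smallest adjusted p was 0.233. At an unadjusted p under 0.05 there were 6, 3 higher and 3 lower, or 16.7% of the collagens, against 11.1% of all genes. The genotypes did not overlap in 21 of 36 collagens, 10 higher and 11 lower, against 46.8% of all genes. The median difference was −0.04 over the 36 collagens and −0.01 over all genes.

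All 36 tested genes were well above background on all 4 arrays, so none entered the test through 1 genotype alone. The cartilage gene Col10a1, the type IV gene Col4a3 and the beaded filament genes Col6a5, Col6a6 and Col28a1 were well above background on 0 arrays. The remaining gene, Col19a1, was well above background on Jmjd3-/- replicate 1 only and was not tested. It read −4.64 there, and −7.58, −7.80 and −7.86 in Jmjd3-/- replicate 9 and wild-type replicates 3 and 4. Its other 2 probes were well above background on 0 arrays.

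**Figure D1:**
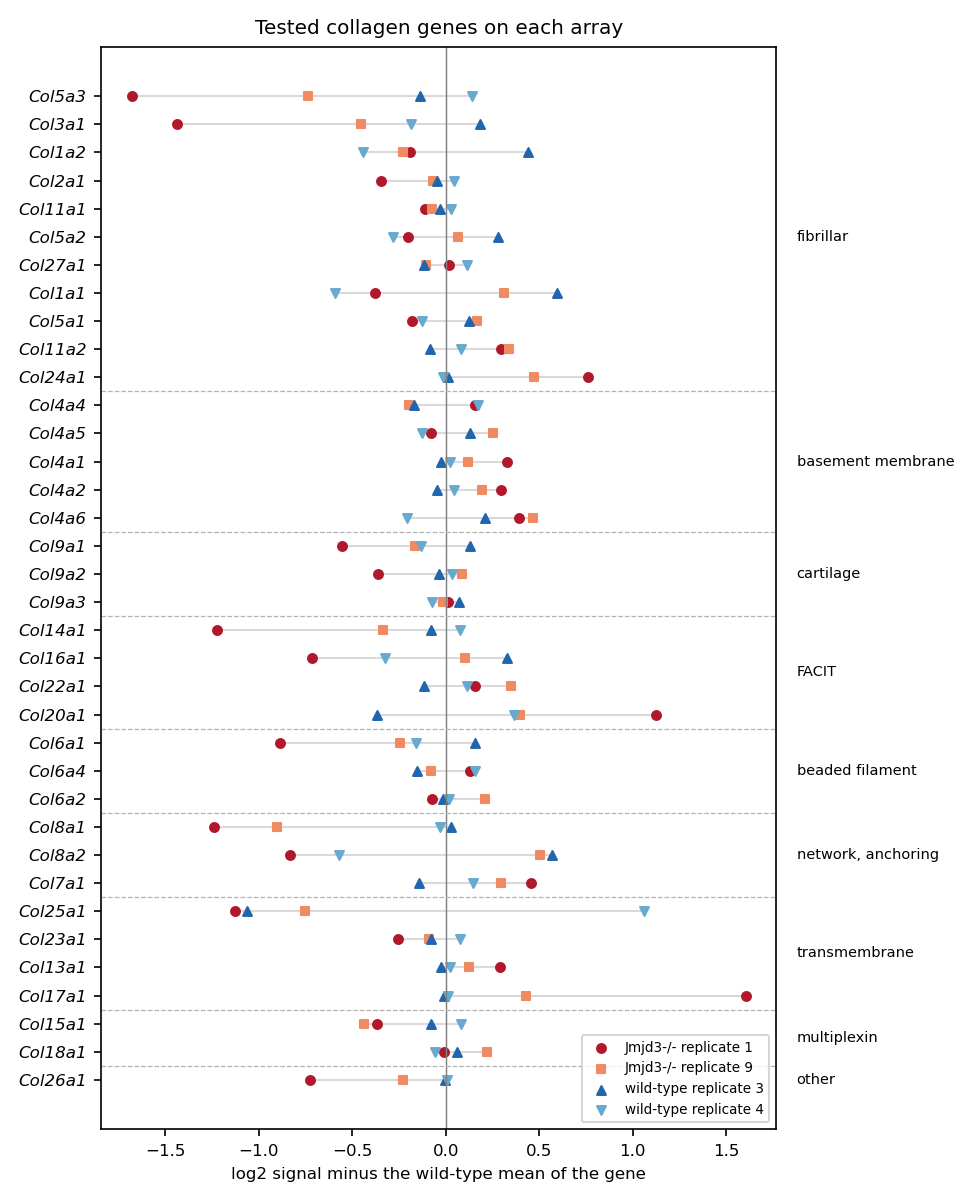
Signal of the 36 tested collagen genes on each of the 4 arrays, as the log2 signal minus the wild-type mean of the same gene, in rows grouped by collagen class; a gene of 2 classes is drawn in the first. Red and orange points are Jmjd3-/- replicates 1 and 9, and dark and light blue points are wild-type replicates 3 and 4. The 2 blue points lie far apart for Col1a1, Col8a2 and Col25a1, and the red point lies outside the others for Col5a3, Col3a1, Col14a1 and Col17a1.

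Type IV collagen is made of 6 chains encoded by 3 pairs of genes, and the genes of a pair lie head to head. The 5 tested genes are Col4a1, Col4a2, Col4a4, Col4a5 and Col4a6. The promoter windows of the Col4a1 and Col4a2 pair and of the Col4a5 and Col4a6 pair are shown, picked after their values were seen. The differences were 0.22 (SE 0.10) and 0.24 (SE 0.09) in the first pair and 0.09 (SE 0.17) and 0.43 (SE 0.17) in the second. Whether the genes of a pair differ from each other was not tested, nor was any link to their promoters. The windows span the RefSeq start, with most bases before it, on GRCm38.p6. Col4a1 is at chr8:11312777-11313076 on the minus strand and Col4a2 at chr8:11312555-11312854 on the plus strand. Their starts are 21 bases apart, and the capitals mark the 78 bases at chr8:11312777-11312854 that both windows hold, each on its own strand.
Col4a1: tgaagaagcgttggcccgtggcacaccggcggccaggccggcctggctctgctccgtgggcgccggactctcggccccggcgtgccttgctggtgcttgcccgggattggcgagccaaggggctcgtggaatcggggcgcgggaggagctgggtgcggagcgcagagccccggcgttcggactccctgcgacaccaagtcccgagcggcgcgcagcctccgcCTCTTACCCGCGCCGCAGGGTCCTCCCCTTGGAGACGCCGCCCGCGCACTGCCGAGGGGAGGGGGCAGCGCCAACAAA
Col4a2: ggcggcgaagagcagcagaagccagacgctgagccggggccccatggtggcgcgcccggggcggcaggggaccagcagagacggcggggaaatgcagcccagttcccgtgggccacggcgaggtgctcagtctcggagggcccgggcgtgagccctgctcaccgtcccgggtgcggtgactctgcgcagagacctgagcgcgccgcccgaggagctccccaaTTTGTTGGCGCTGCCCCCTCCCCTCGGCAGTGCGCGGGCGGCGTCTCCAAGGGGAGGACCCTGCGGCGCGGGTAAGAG

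The windows of the other pair do not overlap, and their starts are 1343 bases apart. Col4a5 is at chrX:141475169-141475468 on the plus strand and Col4a6 at chrX:141474027-141474326 on the minus strand. Capitals mark matches on either strand to the CCAAT box (CCAAT) and the GC box (GGGCGG), which general activators of many promoters bind.
Col4a5: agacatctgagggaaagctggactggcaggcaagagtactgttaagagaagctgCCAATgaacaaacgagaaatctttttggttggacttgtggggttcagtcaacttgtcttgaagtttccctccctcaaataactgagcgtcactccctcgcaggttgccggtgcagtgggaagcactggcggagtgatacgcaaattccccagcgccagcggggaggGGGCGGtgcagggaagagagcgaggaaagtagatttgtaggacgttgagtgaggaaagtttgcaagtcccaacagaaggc
Col4a6: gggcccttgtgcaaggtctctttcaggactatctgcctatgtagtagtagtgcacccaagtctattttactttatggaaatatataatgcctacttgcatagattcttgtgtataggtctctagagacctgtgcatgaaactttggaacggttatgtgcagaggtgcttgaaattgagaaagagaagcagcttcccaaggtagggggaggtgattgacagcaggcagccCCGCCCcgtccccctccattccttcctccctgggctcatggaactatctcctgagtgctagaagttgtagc

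RefSeq promoter windows matched 34 of the 42 collagens, with 37 windows. CCAAT was found on either strand in 13 of these (35.1%, against 37.4% of all 32851 windows), GGGCGG in 23 (62.2%, against 35.7%) and the TATA box TATAAA in 5 (13.5%, against 13.6%). The Col4a1 and Col4a2 windows each held CCAAT and GGGCGG and lacked TATAAA, and the Col4a6 window held GGGCGG only. These are matches of letters, and binding was not measured.

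Col4a1 encodes 1 of the chains found in nearly every basement membrane. It read 1.89 and 1.68 in Jmjd3-/- and 1.54 and 1.58 in wild-type embryos, a difference of 0.22 (SE 0.10, adjusted p = 0.523 by limma). Col4a2 encodes the chain that pairs with it, and read 2.09 and 1.99 against 1.76 and 1.84, a difference of 0.24 (SE 0.09, adjusted p = 0.448). Both Jmjd3-/- samples were above both wild-type samples in each gene, by a small amount. Their second probes were also well above background on all arrays and differed by 0.17 and 0.23.

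Col4a6, a chain of smooth muscle and epithelial basement membranes, read 0.70 and 0.77 in Jmjd3-/- against 0.51 and 0.10 in wild-type embryos, a difference of 0.43 (SE 0.17, adjusted p = 0.479). The genotypes did not overlap, and the wild-type samples lay further apart than the Jmjd3-/- samples. Its other 2 probes differed by 0.21 and 0.26. Col4a5, its head-to-head neighbour, differed by 0.09 (SE 0.17), and Col4a4, a chain of the mature kidney filter, by −0.02 (SE 0.19), and in both the genotypes overlapped.

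Over the 5 type IV genes, 4 had a positive difference. Their median was 0.30 in Jmjd3-/- replicate 1 and 0.19 in Jmjd3-/- replicate 9 against the mean of the wild-type samples, and 0.22 for the genotypes. Wild-type replicate 4 minus replicate 3 had a median of 0.05 with sign, where opposite signs cancel, and of 0.26 in absolute size. In 2 of the 5 genes this wild-type difference was larger than that of the genotypes. Of the 5, 1 reached an unadjusted p under 0.05, against 11.1% of all genes, and 0 an adjusted one. The unadjusted count was 0 with median scaling, quantile scaling, no filter or averaged probes, and 2 with normexp. In these settings 8.89% to 10.9% of all genes reached that level.

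The partner genes that build the basement membrane with type IV collagen showed the same sign with larger sizes. This list held 16 genes, of which 13 were tested, and 10 were higher in Jmjd3-/-, with a median difference of 0.38. At an unadjusted p under 0.05, 7 were higher and 0 lower, or 53.8% of the list, against 5.15% of all genes higher and 5.93% lower; 0 had an adjusted p under 0.05. Pxdn encodes peroxidasin, the enzyme that forms sulfilimine crosslinks between type IV molecules. It read 3.62 and 3.26 in Jmjd3-/- and 2.65 and 2.68 in wild-type embryos, a difference of 0.77 (SE 0.15, adjusted p = 0.330). Nid2, a nidogen that links laminin to type IV collagen, read 2.38 and 2.06 against 1.65 and 1.59, a difference of 0.60 (SE 0.14, adjusted p = 0.337).

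Lama5, the laminin chain of many epithelia and vessels, read 2.11 and 1.59 against 0.94 and 1.09, a difference of 0.84 (SE 0.21, adjusted p = 0.358). Agrn, encoding the heparan sulfate proteoglycan agrin, read 5.79 and 5.54 against 5.08 and 5.25, a difference of 0.50 (SE 0.13, adjusted p = 0.366). In these 4 genes both Jmjd3-/- samples exceeded both wild-type samples, and Jmjd3-/- replicate 1 was the higher of its group. The other 3 genes at an unadjusted p under 0.05 were the laminin genes Lamb1 and Lamb2 and the perlecan gene Hspg2. Not every partner was higher: Nid1, the second nidogen gene, differed by −0.15 (SE 0.11), and the laminin gene Lamc3 was not well above background on either Jmjd3-/- array.

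The sign did not rest on 1 sample. Without Jmjd3-/- replicate 1 the partner median was 0.28, with 10 of 13 genes higher. Without Jmjd3-/- replicate 9 it was 0.49, with 10 higher. Without wild-type replicate 3 or 4 it was 0.39 or 0.41, with 10 or 9 higher.

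Cells rich in basement membrane were read through their markers. Of 8 endothelial markers 1 was higher, with a summed log2 level of 3.43 to 3.50 in Jmjd3-/- and 3.71 to 3.74 in wild-type. Of 10 markers of parietal and visceral endoderm, the extraembryonic layers that secrete much type IV collagen, 4 were higher, with a summed level of 3.13 to 3.29 against 3.98 to 4.42. That sum followed mostly its brightest member, Afp, at 2.78 and 2.51 against 4.17 and 3.64. Without overlap of the genotypes, 3 of the 10 were higher (Amn, Apob and Cubn) and 5 lower, against 23% and 23.7% of all genes. Among the lower ones, Ttr was well above background on the wild-type arrays only and entered the test through them. Of 7 surface ectoderm markers 2 were higher, with a summed level of 7.02 to 7.35 against 6.68 to 7.06. The 2 were Krt8 and Krt18, whose bright probes made up most of that sum. The other 5 were lower, among them Krt5 (−1.36) and Tfap2c (−1.05), and the median of the list was −0.33. Of 6 notochord markers 4 were higher, with 2.501 to 3.003 against 2.40 to 2.499, so the sums of Jmjd3-/- replicate 9 and wild-type replicate 4 were nearly equal. The largest of these differences was that of T (1.09), which is also a posterior marker, and Shh (−0.12) and Foxa1 (−0.10) were lower. Of these markers, 8 of 8, 9 of 10, 7 of 7 and 6 of 6 were well above background on all 4 arrays. Posterior markers were higher in 7 of 8, with 5.92 to 6.46 against 5.23 to 5.37. The part of these cells in the type IV values was not tested, and in RNA of a whole tissue more cells of a type and more RNA per cell cannot be told apart.

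**Figure D2:**
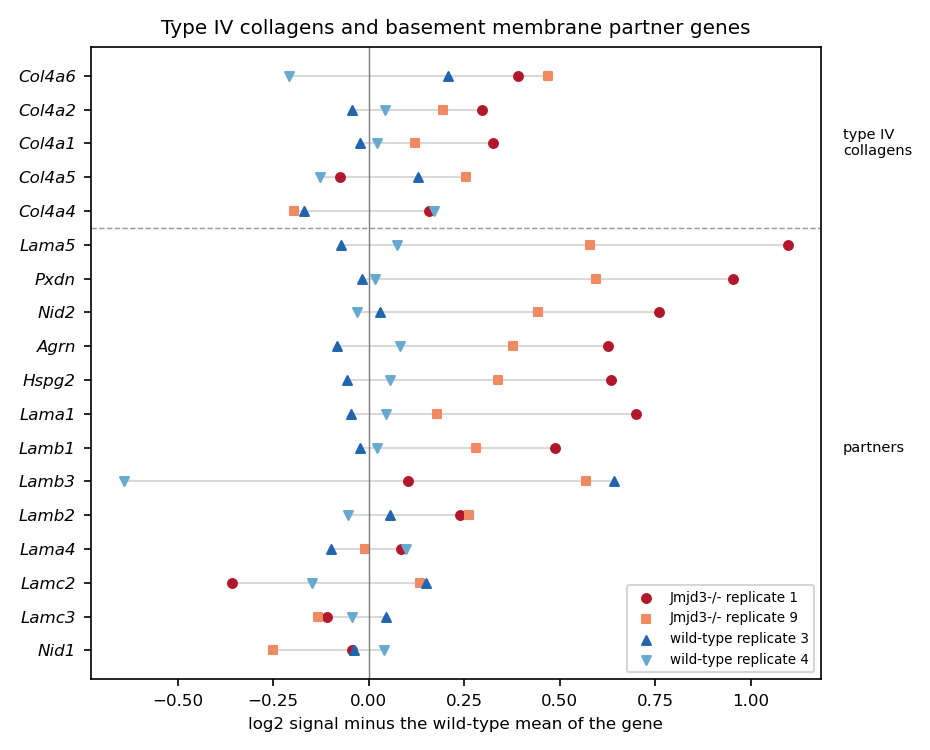
Type IV collagen genes (top 5 rows) and the 13 tested basement membrane partner genes on each array, as the log2 signal minus the wild-type mean of the gene. In Lama5, Pxdn, Nid2, Agrn, Hspg2, Lama1, Lamb1 and Lamb2 both Jmjd3-/- points lie to the right of both wild-type points, and in Nid1 and Lamc3 both lie at or left of them.

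Fibrillar collagens numbered 11, all tested. Of these 2 were higher and 9 lower, with a median difference of −0.07. The genotypes did not overlap in 6, 2 higher and 4 lower, against 46.8% of all genes, 23% higher and 23.7% lower. At an unadjusted p under 0.05, 2 were higher and 1 lower, against 11.1% of all genes in either direction, and under normexp background correction 0 were higher and 2 lower. The direction of the class was not stable: leaving out wild-type replicate 3 gave a median of 0.12 with 6 genes higher, and leaving out replicate 4 gave −0.16 with 3 higher.

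Type I collagen, the main fibre of mesenchyme and later of bone, is built from the products of Col1a1 and Col1a2. Col1a1 read 3.51 and 4.20 in Jmjd3-/- and 4.48 and 3.29 in wild-type embryos, a difference of −0.03 (SE 0.50, adjusted p = 0.989). Col1a2 read 4.36 and 4.32 against 4.99 and 4.11, a difference of −0.21 (SE 0.33, adjusted p = 0.841). In both genes the wild-type samples were the extremes and the Jmjd3-/- samples lay between them. A second bright probe of Col1a1 had the same order of samples up to a near tie at the low end, with −0.92 and −0.20 against 0.19 and −0.93.

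Col3a1, a partner of type I in soft tissue and vessel walls, read 2.02 and 3.01 in Jmjd3-/- and 3.65 and 3.28 in wild-type embryos. Both Jmjd3-/- samples were lower, and replicate 1 was lower by 0.99 than replicate 9. The difference was −0.94 (SE 0.39, adjusted p = 0.492), or −0.45 without Jmjd3-/- replicate 1 and −1.44 without replicate 9. Its neighbour on chromosome 1, Col5a2, which encodes a chain of the type V fibril core, differed by −0.07 (SE 0.24) with overlapping genotypes, and Col5a1, the other common type V chain, by −0.004 (SE 0.17).

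Col5a3, the rarer chain of type V, read −5.41 and −4.47 in Jmjd3-/- against −3.88 and −3.60 in wild-type embryos. The genotypes did not overlap, and the difference was −1.21 (SE 0.36, adjusted p = 0.405). The value in Jmjd3-/- replicate 1 was close to −5.58, the dimmest value among probes marked well above background on that array, and with normexp background correction the difference was −0.36. Col24a1, a fibrillar chain described in forming bone and cornea, read −4.16 and −4.45 against −4.91 and −4.93. Both Jmjd3-/- samples were higher, by 0.62 (SE 0.13, adjusted p = 0.335), and by 0.21 with normexp. Both genes were dim, and their sizes moved with the background correction.

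Cartilage collagens numbered 7, of which 6 were tested, and 3 of these also count as fibrillar. Of the 6, 1 was higher and 5 lower, with a median of −0.11. Col2a1, the main collagen of cartilage and also a gene of notochord and sclerotome, read 2.11 and 2.39 in Jmjd3-/- and 2.41 and 2.501 in wild-type embryos. Jmjd3-/- replicate 9 was within 0.02 of wild-type replicate 3, and the difference was −0.21 (SE 0.13, adjusted p = 0.610), with −0.07 for its second probe.

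Col9a1, a chain of the type IX collagen that coats type II fibrils, read −0.50 and −0.11 against 0.19 and −0.08, a difference of −0.36 (SE 0.19, adjusted p = 0.554), and −0.16 without Jmjd3-/- replicate 1. The other type IX genes Col9a2 and Col9a3 differed by −0.14 (SE 0.18) and less than 0.01 in size, with overlapping genotypes. Col11a2, a type XI chain that sits inside type II fibrils, went the other way. It read −1.65 and −1.61 in Jmjd3-/- and −2.03 and −1.86 in wild-type embryos, a difference of 0.32 (SE 0.09, adjusted p = 0.400), and 0.14 with normexp. Its partner chain Col11a1 differed by −0.09 (SE 0.08).

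Genes that drive cartilage collagens had negative differences. Of 5 tested regulators 0 were higher, with a median of −0.48. An unadjusted p under 0.05 was reached by 1, or 20% of the list, against 11.1% of all genes. Pax9, a sclerotome factor, read −3.38 and −3.004 in Jmjd3-/- against −2.43 and −2.37 in wild-type embryos, a difference of −0.79 (SE 0.15, adjusted p = 0.330). Pax1, its paralog, differed by −0.48 (SE 0.19, adjusted p = 0.489), and Sox9, which switches on Col2a1, by −0.57 (SE 0.25, adjusted p = 0.504). Against wild-type, Jmjd3-/- replicate 9 alone gave −0.23 for Pax1 and −0.25 for Sox9. Sox6, which acts with Sox9, differed by −0.11 (SE 0.08). Leaving out Jmjd3-/- replicate 1 gave a regulator median of −0.23, and leaving out replicate 9 gave −0.73. Of the 5 sclerotome markers, which share Pax1, Pax9 and Sox9 with the regulators, 1 was higher and 4 were lower, with a median of −0.48. Their summed level overlapped between the genotypes, with 3.72 to 3.75 in Jmjd3-/- and 3.66 to 3.76 in wild-type. The brightest marker, Foxc2, weighed most in that sum and was the 1 that was higher, by 0.42 (SE 0.13).

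**Figure D3:**
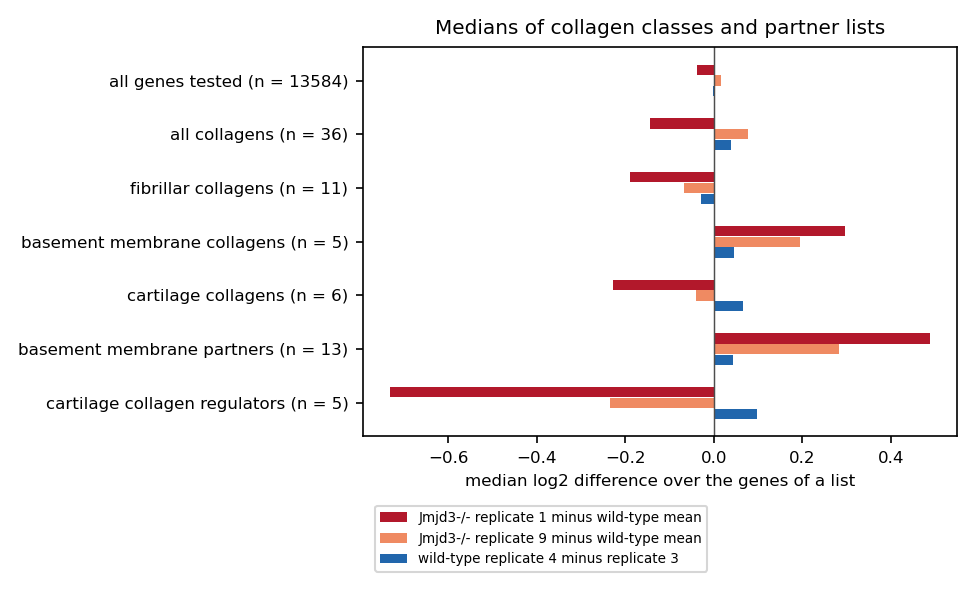
Median log2 difference over the genes of each list, with the number tested in brackets. Red and orange bars are Jmjd3-/- replicates 1 and 9 minus the wild-type mean, and blue bars are wild-type replicate 4 minus replicate 3. All are medians with sign, so opposite signs among the genes of a list cancel. Type IV collagens (0.30 and 0.19) and their partners (0.49 and 0.28) lie to the right in both Jmjd3-/- samples, cartilage regulators (−0.73 and −0.23) to the left, and all genes near 0.

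Set side by side, the median was −0.19 and −0.07 for fibrillar, 0.30 and 0.19 for type IV and −0.23 and −0.04 for cartilage collagens in Jmjd3-/- replicates 1 and 9, against −0.04 and 0.02 for all genes. The type IV median lay above those of the other 2 classes in both samples. With 2 samples per genotype an exact two-sided permutation test cannot give a p under 0.333, so the difference between classes was not tested.

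FACIT collagens attach to fibrils and interrupt the triple helix. Of 8 on the array 7 were tested, and 2 were higher and 5 lower, with a median of −0.14. The sign of that median turned when 1 sample was left out, to 0.09 with 4 genes higher for Jmjd3-/- replicate 1 and to 0.02 with 4 higher for wild-type replicate 3. Col14a1, a FACIT of dense mesenchyme and skin, read −1.88 and −0.99 in Jmjd3-/- against −0.73 and −0.58 in wild-type embryos, a difference of −0.78 (SE 0.33, adjusted p = 0.503). Its dimmer probe was well above background on both wild-type arrays and on 0 of the Jmjd3-/- arrays. Without Jmjd3-/- replicate 1 the difference of the brighter probe was −0.33.

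Col20a1 read −3.65 and −4.38 against −5.14 and −4.41. The genotypes were parted by only 0.03 at their nearest, and the difference was 0.76 (SE 0.38, adjusted p = 0.546), or 0.23 with normexp. Col22a1, a collagen of tissue junctions such as that of muscle and tendon, read −0.13 and 0.06 against −0.40 and −0.18, a difference of 0.25 (SE 0.13, adjusted p = 0.550). Col16a1 differed by −0.31 (SE 0.39), with overlapping genotypes.

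Network-forming and anchoring collagens gave the smallest p of the family. Col8a1 encodes a chain of the hexagonal network of vessels and cornea. It read −3.25 and −2.91 in Jmjd3-/- and −1.98 and −2.04 in wild-type embryos, and was 2.10-fold lower in Jmjd3-/- (difference −1.07, SE 0.14, unadjusted p = 0.00216, adjusted p = 0.233 by limma, rank 122 of 13584 genes). Both Jmjd3-/- samples were lower by at least 0.87 than either wild-type sample. Without Jmjd3-/- replicate 1 the difference was −0.90 and without replicate 9 it was −1.24. With normexp it was −0.63.

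Its partner Col8a2 behaved differently. It read −3.09 and −1.75 against −1.69 and −2.83, with 1 high and 1 low sample in each genotype, and differed by −0.16 (SE 0.64, adjusted p = 0.944). Col7a1, the anchoring fibril that ties epithelial basement membrane to the tissue below, read 0.21 and 0.06 against −0.39 and −0.10, a difference of 0.38 (SE 0.14, adjusted p = 0.461), with both Jmjd3-/- samples higher.

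Transmembrane collagens span the cell membrane. Col17a1, a protein of the hemidesmosomes that fix epithelial cells to their basement membrane, read −1.91 and −3.09 in Jmjd3-/- against −3.53 and −3.50 in wild-type embryos. It was 2.02-fold higher in Jmjd3-/- (difference 1.02, SE 0.43, adjusted p = 0.503), and most of this came from replicate 1, since the difference was 0.43 without it. With replicate 9 left out instead, the difference was 1.60 and Col17a1 was the 1 collagen with an adjusted p under 0.05 (adjusted p = 0.0465 by limma). The 7 surface ectoderm markers had summed levels of 7.02 and 7.35 in Jmjd3-/- against 7.06 and 6.68 in wild-type embryos. Krt8 and Krt18, the 2 that were higher, made up most of these sums, and the other 5 were lower. The part of surface ectoderm in the Col17a1 value was not tested.

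Col13a1, found at junctions of cell and matrix, read 1.06 and 0.89 against 0.74 and 0.79, a difference of 0.21 (SE 0.09, adjusted p = 0.519), with 0.36 for its second probe. Col23a1 read −0.61 and −0.44 against −0.43 and −0.28, a difference of −0.17 (SE 0.11, adjusted p = 0.613), and its 2 other probes differed by −0.27 and −0.15. Col25a1, a collagen of neurons that is needed for motor axons to enter muscle, read −4.34 and −3.96 against −4.27 and −2.15. Wild-type replicate 4 was high and the other 3 samples were close together, and the difference of −0.94 (SE 0.79) became 0.12 without that sample.

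Multiplexins, with a helix broken many times, lie at the outer face of basement membranes. Col15a1, a gene of capillary and muscle basement membrane, read −3.77 and −3.83 in Jmjd3-/- against −3.48 and −3.32 in wild-type embryos. The genotypes did not overlap, and the difference was −0.40 (SE 0.10, adjusted p = 0.350), or −0.20 with normexp. Col18a1, whose product is cut to release endostatin, read 5.32 and 5.55 against 5.39 and 5.27, a difference of 0.11 (SE 0.12, adjusted p = 0.764), with 0.11 for its second probe as well. The genotypes overlapped in Col18a1, and the multiplexins differed in sign.

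Beaded filament collagens link cells to fibrils. Of 6 on the array 3 were tested. Col6a1 read −4.02 and −3.38 against −2.98 and −3.30, a difference of −0.56 (SE 0.27, adjusted p = 0.532), and −0.28 with normexp. Its neighbour on chromosome 10, Col6a2, which encodes the second chain of the same molecule, differed by 0.07 (SE 0.13), and Col6a4 read −3.67 and −3.88 against −3.95 and −3.64, a difference of 0.03 (SE 0.15). Col26a1, which has few helical repeats and was in no class, differed by −0.48 (SE 0.20, adjusted p = 0.490), with both Jmjd3-/- samples lower.

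The spread within a genotype limited these values. In 13 of 36 collagens the wild-type samples differed from each other by more than the genotypes did, against 38.0% of all genes. Col1a1, Col8a2 and Col16a1 shared an order of samples, more than 0.5 lower both in wild-type replicate 4 than in replicate 3 and in Jmjd3-/- replicate 1 than in replicate 9, which held for 1.04% of all genes. The same order was seen for 3 of 18 interstitial and cartilage matrix partners, the small proteoglycan genes Dcn and Lum and the gene Postn of periostin. Lum read 0.85 and 2.60 in Jmjd3-/- and 3.76 and 1.71 in wild-type embryos. These genes were picked out after their values were seen.

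**Figure D4:**
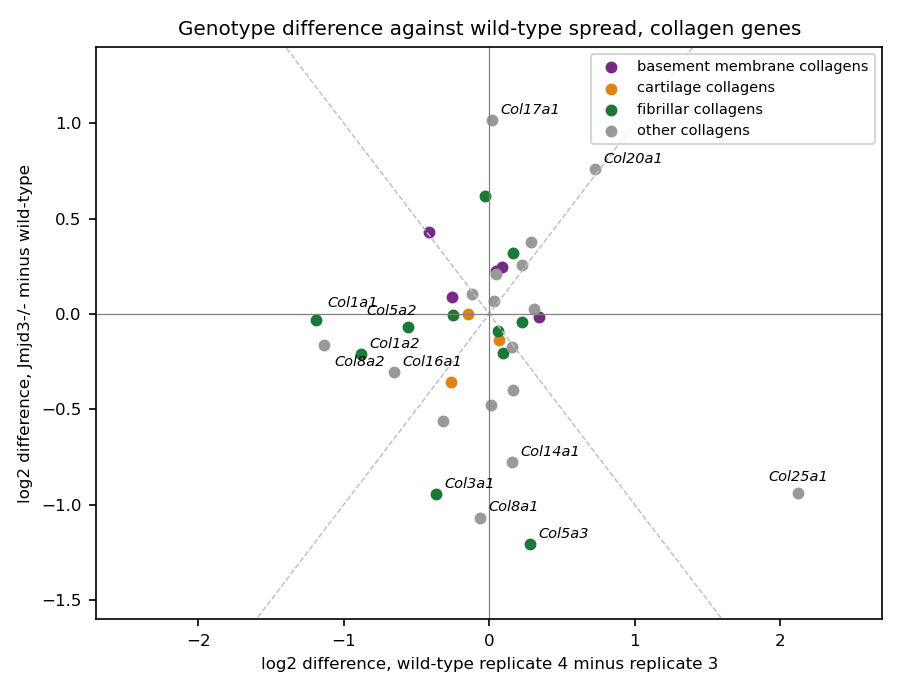
Difference between the genotypes (vertical axis, log2) against the difference between wild-type replicates 4 and 3 (horizontal axis, log2) for the 36 tested collagens, coloured by class, with Col2a1, Col11a1 and Col11a2 drawn as fibrillar. Dashed lines mark equal size. Col1a1, Col1a2, Col8a2 and Col25a1 lie where the wild-type spread exceeds the genotype difference, and Col8a1, Col5a3 and Col17a1 where it does not.

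Enzymes that fold and crosslink collagen had a median of −0.05 over 19 tested genes, 9 higher and 10 lower. At an unadjusted p under 0.05, 2 were lower and 0 higher, or 10.5% of the list, against 11.1% of all genes in either direction. Colgalt2, a galactosyltransferase of collagen, differed by −0.48 (SE 0.08, adjusted p = 0.307), and the prolyl hydroxylase family gene P3h3 by −0.65 (SE 0.18, adjusted p = 0.390), or −0.42 without Jmjd3-/- replicate 1. The lysyl hydroxylase gene Plod1 differed by 0.24 (SE 0.10), and P3h4 by −0.36 (SE 0.16). The collagen chaperone gene Serpinh1 differed by −0.07 (SE 0.10).

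Of 5 tested genes for procollagen processing 2 were higher and 3 lower. Pcolce, an enhancer of the enzyme that cuts the end of fibrillar procollagen, read 3.18 and 4.17 in Jmjd3-/- against 4.84 and 4.66 in wild-type embryos, a difference of −1.07 (SE 0.37, adjusted p = 0.445), and −0.58 without Jmjd3-/- replicate 1. Bmp1, that enzyme itself, differed by −0.17 (SE 0.07), Adamts14 by 0.22 (SE 0.17) and Pcolce2 by 0.27 (SE 0.24).

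Among 4 tested collagen receptors, Ddr2, a kinase that binds fibrillar collagen, read −1.49 and −0.73 against 0.04 and 0.03, a difference of −1.14 (SE 0.28, adjusted p = 0.358). The integrin genes Itga11, Itga1 and Itgb1 differed by −0.13 (SE 0.16), 0.13 (SE 0.29) and −0.06 (SE 0.16). Thus Ddr2, Col3a1 and Pcolce were each lower in both Jmjd3-/- samples and lowest in replicate 1, while Col1a1 and Col1a2 were not.

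Interstitial and cartilage matrix partners had 9 of 18 genes higher and a median of 0.05. At an unadjusted p under 0.05, 3 were higher and 1 lower, or 22.2% of the list, against 11.1% of all genes in either direction. Snorc, 1 of the higher genes, was well above background on only 1 wild-type array and entered the test through Jmjd3-/-. With the filter on all 4 arrays it dropped out, and the median was −0.03 with 8 of 17 genes higher. Leaving out Jmjd3-/- replicate 9 gave a median of −0.11, and leaving out Jmjd3-/- replicate 1 or wild-type replicate 3 gave 0.14 with 13 genes higher or 0.19 with 14. Comp, a cartilage and tendon glycoprotein, read −3.11 and −3.27 in Jmjd3-/- against −4.63 and −4.67 in wild-type embryos, a difference of 1.46 (SE 0.09, adjusted p = 0.152). Tnc, encoding tenascin C, read −5.07 and −4.74 against −3.14 and −3.03, a difference of −1.82 (SE 0.15, adjusted p = 0.152). In both genes the samples of a genotype lay close together and far from the other genotype. Both genes were dim in the lower genotype. Tnc in Jmjd3-/- lay not far above −5.58 and −5.29, the dimmest values marked well above background on those arrays.

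The matrilin gene Matn3 differed by 0.37 (SE 0.09, adjusted p = 0.358). The fibronectin gene Fn1 read 2.47 and 1.57 in Jmjd3-/- against 1.028 and 1.07, a difference of 0.97 (SE 0.34, adjusted p = 0.441), and 0.52 without Jmjd3-/- replicate 1. Of 10 tested genes of collagen breakdown, 4 were higher and 6 lower, with a median of −0.12. At an unadjusted p under 0.05, 2 were lower and 0 higher, or 20% of the list, against 11.1% of all genes in either direction. The 2 were the protease inhibitor genes Timp1, at −0.64 (SE 0.15, adjusted p = 0.350), and Timp3, at −0.34 (SE 0.10, adjusted p = 0.387). The protease genes Mmp16 and Mmp11 differed by −0.34 (SE 0.14) and −0.24 (SE 0.11).

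Heart markers stood beside these values. Of 7 tested, 2 were higher, and their summed level was 2.05 to 2.62 in Jmjd3-/- and 3.01 to 3.60 in wild-type. Neural markers were lower in 7 of 7, with 1.30 to 1.92 against 2.28 to 2.30. Of these, 4 were lower without overlap, against 23.7% of all genes, and Sox1 and Sox2 differed by only −0.05 and −0.006. The heart marker Nkx2-5 and the neural marker Dcx were each well above background on only 1 Jmjd3-/- array and entered the test through wild-type. Whether heart or neural cells contribute to the lower values of Col3a1, Col14a1 or Tnc was not tested.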

How the data were processed

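RNA of 2 Jmjd3-/- and 2 wild-type samples was measured on 1 array each. The scanner files hold spot intensity as deposited, the processed signal of Agilent Feature Extraction 10.7.3.1 per the file headers; how it corrects background is not given in those headers. A table of log2 values was also deposited; from the values it is that signal scaled per array at percentile 75 and centred per probe on the mean of the wild-type arrays, within 0.01 in 99.9% of probes, and the column medians lay between −0.02 and 0.05. Its scale, centring and direction were found in this way, as no source used here states them.

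Of 45018 spots, 1639 controls were left out. Log2 signals were averaged over the spots of a probe and scaled by subtracting each array's percentile 75. RefSeq (GRCm38.p6) named 26690 of 41174 probes by accession, 5 by symbol and 23 by synonym, and left 14456 unnamed; its promoter windows keep that build, while the file headers name mm9 for the array design. A probe is well above background where at least a share of 0.5 of its spots carry that mark. A gene was tested if its brightest probe was so on both arrays of a genotype, which gave 13584 genes, with limma 3.58.1 in R 4.3.3 (lmFit, eBayes), Benjamini-Hochberg adjustment and a threshold of 0.05; the code was checked on simulated data. The brightest probe is that with the highest mean over the arrays. Depth on an array is limited by the number of arrays.

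Members, classes, lists and tests were chosen with earlier results of these data known. Values on each array are given for members with an unadjusted p under 0.05, for those without overlap that differ by at least 0.5, and for the 2 of each class with the highest signal, with up to 4 genes by p of each partner list; a few others were named after their values were seen. Cell lists are markers of notochord, sclerotome, endothelium, parietal and visceral endoderm, surface ectoderm, heart, neural tissue, posterior embryo and forebrain. Alternatives were median or quantile scaling, normexp background correction (offset 50, on spot medians, where the plan named spot means), no filter or a filter on all 4 arrays, the mean of a gene's probes, no outlier spots, the deposited table, and each array left out.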

Additional observations from a re-analysis of the deposited data

How the results depend on the processing

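No paired analysis was possible because the genotypes share no replicate number. Each value was recomputed under 12 alternatives. Among the 36 tested collagens 20 kept the sign of their difference under all 12, and 0 had an adjusted p under 0.05 except Col17a1 without Jmjd3-/- replicate 9. The count of all genes at an adjusted p under 0.05 was 5, of which 3 were higher; it was 2 with normexp, 3 with probes averaged per gene, and 0 with quantile scaling, without a filter or with a filter on all 4 arrays (limma; 1466, 1621 and 1415 genes at an unadjusted p under 0.05), and 0 to 167 over arrays left out. Over arrays left out the count of collagens was 0 to 1 at an adjusted and 3 to 15 at an unadjusted p under 0.05. Medians over arrays left out ranged from −0.145 to 0.0763 for all collagens, −0.19 to 0.12 for fibrillar, 0.19 to 0.30 for type IV, −0.23 to −0.0409 for cartilage, −0.36 to 0.0878 for FACIT, −0.13 to 0.0839 for beaded filament, −0.83 to 0.30 for network and anchoring, −0.0314 to 0.175 for transmembrane and −0.19 to −0.11 for multiplexin collagens. For the partner lists they were −0.15 to 0.0212 for folding enzymes, −0.16 to 0.20 for processing, 0.28 to 0.49 for basement membrane, −0.28 to −0.0746 for receptors, −0.11 to 0.19 for interstitial matrix, −0.22 to −0.0224 for degradation and −0.73 to −0.23 for regulators. Without a filter the median was 0.16 for type IV, 0.0814 for beaded filament and −0.00834 for degradation genes. The beaded filament median, 0.03, was 0.00924 with median scaling, −0.0257 with normexp and −0.00284 with the mean of probes; the multiplexin median was −0.055 with normexp, and the processing median 0.017 with the mean of probes. The sign reversed for Col11a1 with the mean of probes (0.15), for Col6a4 with normexp (−0.0257) and the mean of probes (−0.00284) and for Col9a3 with normexp (0.0576). Over arrays left out the sign reversed within −0.72 to 0.11 for Col16a1, −0.00725 to 0.22 for Col18a1, −0.63 to 0.56 for Col1a1, −0.65 to 0.23 for Col1a2, −2 to 0.12 for Col25a1, −0.16 to 0.0693 for Col27a1, −0.20 to 0.16 for Col4a4, −0.076 to 0.26 for Col4a5, −0.18 to 0.17 for Col5a1, −0.35 to 0.21 for Col5a2, −0.0732 to 0.21 for Col6a2, −0.13 to 0.18 for Col6a4, −0.83 to 0.51 for Col8a2, −0.36 to 0.0878 for Col9a2 and −0.0734 to 0.0723 for Col9a3. With an array left out 1 sample stands for its genotype and is assumed to vary like the others. The cause of these moves was not tested. The collagen counts over arrays left out were highest without Jmjd3-/- replicate 9, as were those of all genes. The rise in these counts was thus not limited to collagens. Normexp lifts dim signals by its offset, so dim genes such as Col5a3 and Col24a1 differ less under it by construction.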
